A study of Arabidopsis thaliana with 18 samples.

Results

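Transcripts of Arabidopsis thaliana rosettes were compared between sound of 500 Hz and silence, using the 3 arrays whose titles give 500 Hz and the 3 whose titles give control, 6 of the 18 arrays of the series. The plants were of the wild-type accession Col-0, 20 days old and grown in continuous light. The 500 Hz plants stood for 1 h in a soundproof chamber with sound at 80 dB, the control plants stood in a similar chamber without sound, and rosettes were collected as soon as the hour ended. The other 12 arrays, 3 each at 250, 1000, 2000 and 3000 Hz, entered the fit and served to show where 500 Hz differed from other sound. Each array is a biological replicate by its title, and nothing in the labels says whether replicates came from separate trays or days. The p values therefore set group differences against the variation among these arrays only. Affymetrix ATH1 arrays were used, on which a probe set is a group of short probes that reports 1 signal, here on the log2 scale.

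Plants sense touch, wind and vibration at the cell surface, and the first cellular signs are a rise of calcium in the cytosol and activity of calcium sensors such as calmodulin-like proteins. Genes of wall-modifying enzymes, the XTH family and expansins among them, are classic targets of touch in leaves, since these enzymes cut, rejoin or loosen the polymers that limit cell growth. A-type response regulators are switched on by the hormone cytokinin and in turn dampen its signalling, which in rosettes bears on cell division and leaf growth.

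The control arrays lay farther apart than the 500 Hz arrays. A distance of 2-fold or more was found at 1310 probe sets between control replicates 1 and 2, at 944 between 1 and 3 and at 732 between 2 and 3, but at 285 to 339 between pairs of 500 Hz arrays. Control replicate 2 lay nearer to 500 Hz replicates 1 and 3, with 301 and 463 such probe sets, than to either other control, and about as far from 500 Hz replicate 2 (726) as from control replicate 3. For control replicate 1 the same counts were 1721, 2293 and 2041. The mean variance of a probe set was 0.103 among the controls, 0.0461 at 500 Hz and 0.0275 to 0.0417 at the other frequencies. A fit that shares 1 variance over the 6 groups therefore gives errors against control that are, on average, smaller than the spread of the controls alone would give. Where controls lay close together the errors could be larger. For AT5G38710 the SE was 0.183 in that fit and 0.149 in a fit on the 6 arrays of 500 Hz and control. The array medians were 6.53 to 6.61 in the controls and 6.52 to 6.54 at 500 Hz, and the 3' minus 5' signal of the actin control probe sets, a sign of RNA quality, was 3.25 to 3.69 and 3.33 to 3.38.

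The tissue label was checked on marker genes. The 11 measured nuclear photosynthesis genes, which mark leaf, had a summed log2 signal of 16.74 to 16.76 in the controls and 16.82 to 16.86 at 500 Hz, and 0 of them passed the test. The 3 root and root hair markers summed to 6.84 to 8.88 in the controls and 6.47 to 7.05 at 500 Hz. The high value is control replicate 1, where the root beta-glucosidase PYK10 (AT3G09260) had 8.67, against 5.38 and 5.82 on the other 2 controls and 4.32, 6.02 and 5.63 at 500 Hz. The root hair expansins EXPA7 and EXPA18 lay between 4.84 and 5.46 on all 6 arrays. The 8 pollen and flower markers summed to 8.0 to 8.14 and 8.02 to 8.09 and the 2 seed markers to 5.09 to 5.14 and 5.18 to 5.37. Of the 3 markers PYK10 alone was high on control replicate 1. Whether that array holds root RNA, and whether this bears on the results below, was not tested. Without that array, 20 of 104 genes singled out below that pass against control still passed.

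At 500 Hz, 941 probe sets were higher and 1085 lower than in silence (limma on 18 arrays, Benjamini-Hochberg adjusted p under 0.05 over 22746 probe sets), which is 8.91% of those tested, 4.14% higher and 4.77% lower. Of these, 394 were at least 2-fold higher and 129 at least 2-fold lower, so large changes were mostly rises. The even split depended on scaling: with each array centred on its median, 1196 were higher and 800 lower, so that the higher share went from 46.4% to 59.9%. Without control replicates 1, 2 and 3 in turn the count was 182 (0.8%), 4075 (17.9%) and 1285 (5.65%). Without 500 Hz replicates 1, 2 and 3 it was 1935 (8.51%), 2 (0.00879%) and 581 (2.55%), and the 2 left carry no named gene. An unadjusted p under 0.05 in limma was still found at 4470 probe sets without 500 Hz replicate 2. There were 6047 with all arrays and 4174 without control replicate 1. Several named genes then lay just above the threshold, such as SPCH (-0.83) and UBP24 (-0.62) at an adjusted p of 0.051 without 500 Hz replicate 2. When both replicates numbered 2 were left out, it was 2559. When limma was fitted on the 6 arrays alone, with no spread borrowed from other groups, 0 probe sets passed, 3698 had an unadjusted p under 0.05 and the smallest adjusted p was 0.138. Every call against control given here thus rests on the spread shared by all 18 arrays.

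**Figure D1:**
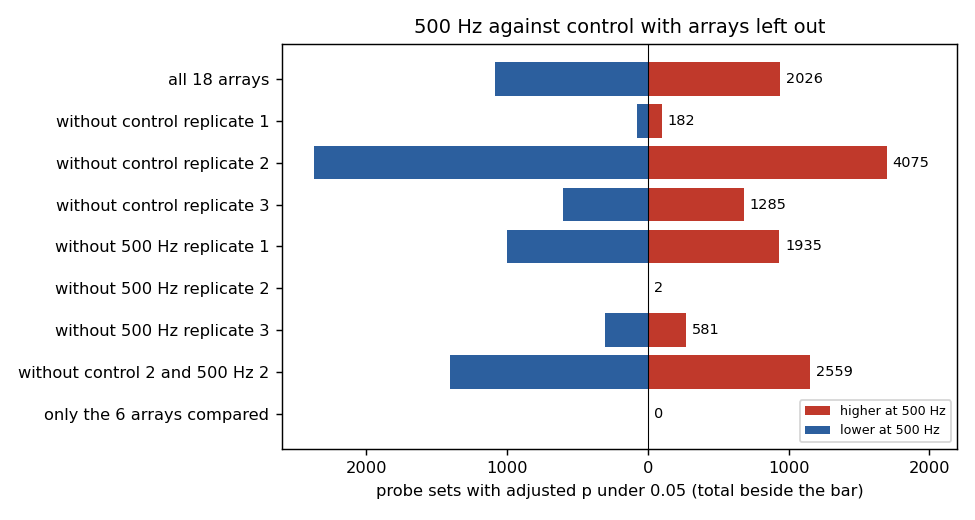
Probe sets with an adjusted p under 0.05 for 500 Hz against control in limma, higher to the right and lower to the left, with the total beside each bar. The bars run from 0 on the 6 arrays alone and 2 without 500 Hz replicate 2 to 4075 without control replicate 2.

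All 3 sound arrays lay beyond all 3 controls at 5014 probe sets (22.0% of those tested), 2352 above (10.3%) and 2662 below (11.7%), and after centring at 5059, 3131 above and 1928 below. With 3 arrays against 3, an exact permutation test cannot give a two-sided p below 0.1, so this is a description. The gap between the nearest arrays reached 1 on the log2 scale at 9 probe sets, 8 above and 1 below. Of the 2026 probe sets that passed, 1808 had groups that did not overlap. Of these 1808, 838 were above and 970 below, and 1008 carry a single named gene. The call held with each control left out in turn for 169 probe sets (94 higher, 75 lower). Of these, 96 carry a single named gene.

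CML38 (AT1G76650), a calmodulin-like calcium sensor known for its response to touch and wounding, was the named gene with a known function that rose most. Its log2 signals were 4.75, 7.62 and 5.85 on control replicates 1, 2 and 3 and 8.36, 10.47 and 10.19 on the 500 Hz arrays. The highest control was replicate 2, and the gap to the lowest sound array was 0.74. CML38 rose by 3.60 ± 0.61 (SE), or 12.1-fold (adjusted p = 0.00962). Without control replicates 1, 2 and 3 the change was 2.94, 4.37 and 3.49 with adjusted p of 0.0413, 8.48e-05 and 0.0249, and without 500 Hz replicate 2 it was 3.20 (adjusted p = 0.0516). CML38 is 1 of 8 measured genes for calmodulin and calmodulin-like proteins, and it was the only one of them that passed. The median of the 8 was 0.35, against -0.01 over all probe sets. All 8 values were positive, against 48.9% of all probe sets, in a list chosen with earlier results of these data known. The neighbouring gene AT1G76640 (CML39) had a change of 0.02 and lay between 4.48 and 4.63 on all 6 arrays, whereas CML37 had 1.75 (adjusted p = 0.169).

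The rapid stress response list, of genes known to respond within an hour to wounding, cold or microbial signals, had 4 of 9 members higher and 0 lower. Its median was 1.24 and all 9 were positive. The list was chosen with earlier results of these data known, so these counts may partly restate that choice. CML38 is among those that passed and is also counted with the calmodulin-like genes. EXO (AT4G08950), which is needed for brassinosteroid-promoted cell expansion, had 8.93, 12.72 and 8.75 on the controls and 12.87, 13.25 and 12.91 at 500 Hz. Control replicate 2 lay 0.15 below the lowest sound array and the other controls about as high as each other, far below. EXO rose by 2.88 ± 0.67, 7.34-fold (adjusted p = 0.0196), and without control replicate 1 the change was 2.28 (adjusted p = 0.0985). WRKY22 (AT4G01250), a transcription factor of the immune response, had 5.10, 7.49 and 5.71 on the controls and 7.68, 8.45 and 8.88 at 500 Hz, and rose by 2.24 ± 0.43 (adjusted p = 0.0121). PUB23 (AT2G35930), a U-box ubiquitin ligase that restrains immune signalling, rose by 1.24 ± 0.27 (adjusted p = 0.0156). Its signals were 6.56, 7.23 and 6.40 on the controls and 7.56, 8.41 and 7.95 at 500 Hz, with no overlap. The zinc finger repressor gene STZ had 1.54 (adjusted p = 0.0578), and PUB22, WRKY6, PUB24 and WRKY53 had 0.72, 0.68, 0.68 and 0.09. Without control replicate 1 the change was 1.74 for WRKY22 (adjusted p = 0.0563) and 1.16 for PUB23 (adjusted p = 0.0697). Then only CML38 of the 9 passed, and without 500 Hz replicate 2 none did, with a median of 0.92.

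Wall-modifying genes moved in both directions. XTH enzymes cut xyloglucan chains and rejoin them, and 4 of 10 measured XTH genes were higher and 0 lower, with a median of 0.41. This list too was chosen with earlier results of these data known. XTH33 (AT1G10550) had 5.55, 8.17 and 6.15 on the controls and 9.35, 8.47 and 8.91 at 500 Hz, a rise of 2.29 ± 0.46 (4.88-fold, adjusted p = 0.0135). XTH18 (AT4G30280) rose by 2.61 ± 0.65 (6.09-fold, adjusted p = 0.0257), but its groups overlapped. Its signals were 6.88, 9.34 and 6.62 on the controls and 9.27, 10.66 and 10.73 at 500 Hz, so that control replicate 2 lay above 500 Hz replicate 1. Without control replicates 1 and 3 the change was 2.24 and 2.11 (adjusted p = 0.116 and 0.0789). XTH19 (AT4G30290), which lies next to XTH18 in the genome, rose by 1.84 ± 0.51 (adjusted p = 0.0376) with the same overlap, and whether the 2 probe sets take up each other's RNA was not tested. EXGT-A3 (AT2G01850, XTH27) rose by 1.39 ± 0.33, from 9.69, 11.69 and 10.13 to 11.84, 11.74 and 12.10. In all 4 genes control replicate 2 was the highest control, and without control replicate 1 none of the 10 XTH genes passed, with XTH33 at 1.75 (adjusted p = 0.0597).

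Expansins loosen the wall without cutting its polymers, and of 19 measured genes 2 were higher and 1 lower, with a median of 0.02. The expansin-like gene EXLA1 (AT3G45970) rose by 2.06 ± 0.49, from 8.92, 11.87 and 9.68 to 12.10, 12.02 and 12.52, and EXLA3 next to it rose by 0.69 ± 0.19 at low signals of 3.95 to 4.93. The alpha-expansin EXPA4 (AT2G39700) went the other way, with 9.14, 7.86 and 8.80 on the controls and 7.51, 7.37 and 7.49 at 500 Hz. It fell by 1.14 on the log2 scale (SE 0.23, adjusted p = 0.0126) and its groups did not overlap. None of the 19 expansin genes passed without control replicate 1 or without 500 Hz replicate 2, and EXPA4 had -0.87 (adjusted p = 0.0572) without the former. Among 33 genes for pectin- and cellulose-related wall enzymes 2 were higher and 2 lower, with a median of 0.01. That is near the share over all probe sets, of which 4.14% were higher and 4.77% lower. GH9C2 (AT1G64390), an endoglucanase of glycosyl hydrolase family 9, fell by 1.98 (SE 0.51, adjusted p = 0.0281). Its controls read 9.66, 6.47 and 8.22 and its 500 Hz arrays 6.29, 5.91 and 6.21, so control replicate 2 was 0.18 above the sound arrays, and without control replicate 1 the change was -1.21 (adjusted p = 0.109). The CSLC genes encode synthases of the xyloglucan backbone. CSLC04 rose by 0.75 ± 0.20 and CSLC12 by 0.59 ± 0.17, whereas CSLC5 fell by 0.78 (SE 0.22). The groups of CSLC12 overlapped. None of the 33 passed without control replicate 1, 500 Hz replicate 2 or 500 Hz replicate 3.

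RALF peptides are secreted signals that raise the pH outside the cell and act through receptor kinases such as FERONIA. Of 11 measured RALF-like genes, a list added after values were seen, 2 were higher and 2 lower, with a median of 0.06. RALFL22 rose by 1.47 ± 0.34, from 9.12, 11.15 and 9.49 to 11.31, 11.36 and 11.51. RALFL33 (AT4G15800) rose by 1.25 ± 0.32 with control replicate 2, at 12.18, within the sound arrays of 12.16 to 12.36. RALFL34 (AT5G67070) had 11.56, 10.97 and 11.06 on the controls and 10.56, 10.39 and 10.59 at 500 Hz, and fell by 0.68 (SE 0.15, adjusted p = 0.0174). RALFL31 fell by 0.51 (adjusted p = 0.035). All 3 sound arrays of RALFL34 lay below all controls. None of the 11 passed without control replicate 1, where RALFL34 had -0.50 (adjusted p = 0.0792), or without 500 Hz replicate 2.

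**Figure D2:**
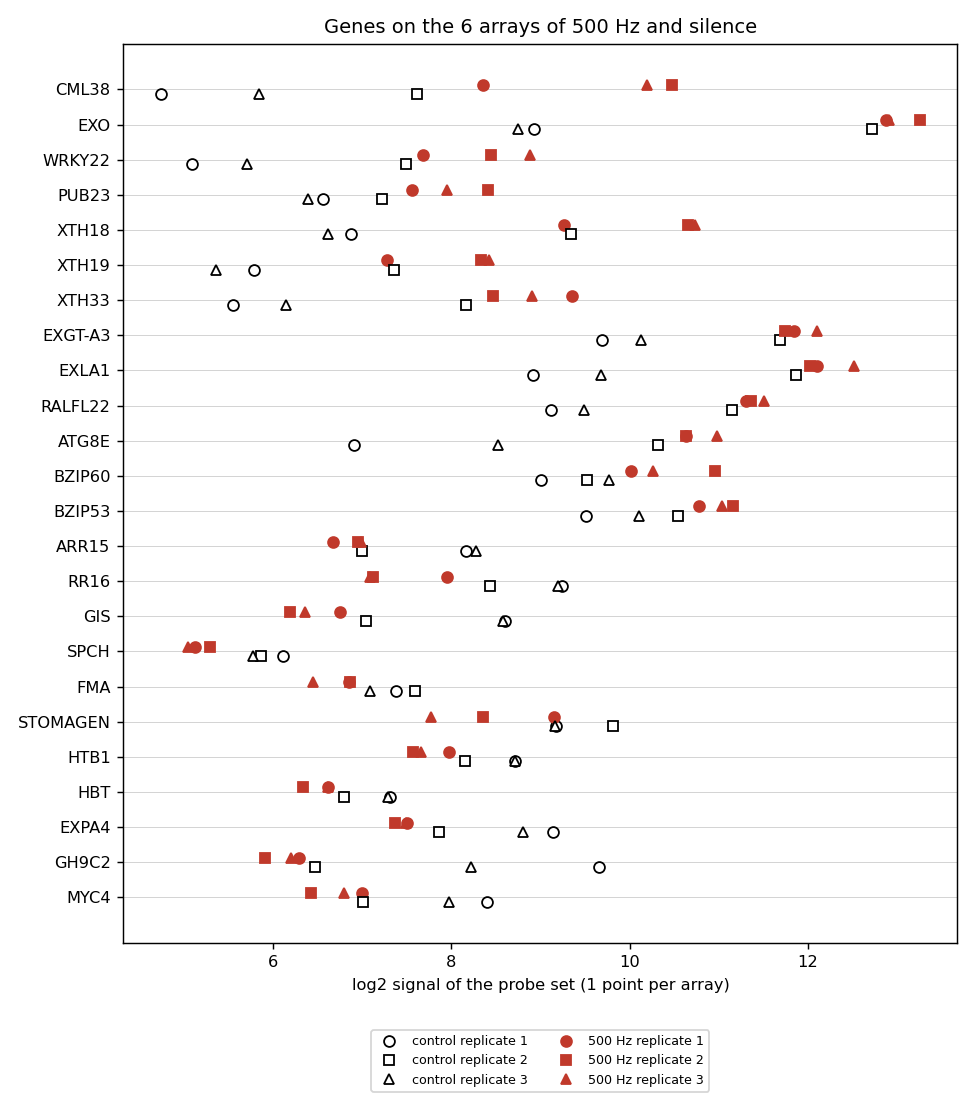
Log2 signal of 24 genes on each of the 6 arrays, with controls as open and 500 Hz as filled symbols and the shape giving the replicate. In most of these genes control replicate 2 (open square) is the control nearest to the sound arrays, and XTH18 and XTH19 overlap because of it.

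Both A-type response regulators of cytokinin signalling that could be named were lower. Since 8730 probe sets had no named gene, other family members on the array may be unseen. RR16 (AT2G40670) had 9.24, 8.43 and 9.20 on the controls and 7.95, 7.12 and 7.09 at 500 Hz, with a gap of 0.48. It fell by 1.57 (SE 0.26, 2.97-fold, adjusted p = 0.00962). Without control replicates 1, 2 and 3 the change was -1.43, -1.83 and -1.45 with adjusted p of 0.0413, 0.000195 and 0.0248, so its call held each time, and without 500 Hz replicate 2 it was -1.44 (adjusted p = 0.051). ARR15 (AT1G74890) fell by 0.94 (SE 0.24, adjusted p = 0.0298), from 8.17, 7.0 and 8.28 to 6.68, 6.96 and 6.99. Its nearest arrays, control replicate 2 and 500 Hz replicate 3, lay 0.01 apart, and without control replicates 1 and 3 its adjusted p was 0.14 and 0.095.

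Genes of epidermal cell fate were lower in part. Stomata arise from a lineage that the bHLH factors SPCH, MUTE and FMA start, advance and complete in that order, and STOMAGEN is a peptide from inner leaf tissue that raises the number of stomata. Of these 4, 3 passed, all lower, and the median was -0.70. The stomatal list was added after values were seen. SPCH (AT5G53210) had 6.12, 5.87 and 5.78 on the controls and 5.13, 5.30 and 5.05 at 500 Hz, and fell by 0.76 (SE 0.15, adjusted p = 0.0122). Here the 3 controls lay close together and control replicate 2 was between the other controls. FMA (AT3G24140) had 7.38, 7.60 and 7.09 against 6.86, 6.87 and 6.45 and fell by 0.63 (SE 0.17, adjusted p = 0.0321). STOMAGEN (AT4G12970) had 9.17, 9.81 and 9.16 against 9.15, 8.36 and 7.77 and fell by 0.95 (SE 0.28, adjusted p = 0.0452), with a gap of 0.01. MUTE had -0.25 (adjusted p = 0.064), and its 3 sound arrays also lay below all controls. In whole rosettes fewer cells of a type and less RNA per cell cannot be told apart. Without control replicate 1 none of the 4 passed, with a median of -0.64, and without control replicates 2 and 3 it was 1 and 2. GIS (AT3G58070), a zinc finger gene that promotes trichomes, had 8.60, 7.05 and 8.58 on the controls and 6.75, 6.19 and 6.36 at 500 Hz and fell by 1.64 (SE 0.32, 3.12-fold, adjusted p = 0.0118). TRY, a repressor of trichome fate, had -1.24 (adjusted p = 0.0538). In the list of guard cell and trichome markers 3 of 5 genes were lower, and 0 without control replicate 1, where GIS had -1.38 (adjusted p = 0.0575). That list also holds SPCH, MUTE and FMA, so GIS was its only passing gene outside the stomatal list.

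Genes of cell division were lower in part. Of 10 measured cell cycle and histone genes 0 were higher and 3 lower, with a median of -0.40 and 1 positive value. HTB1 (AT1G07790), a histone H2B gene, had 8.72, 8.16 and 8.72 on the controls and 7.98, 7.57 and 7.66 at 500 Hz, and fell by 0.80 (SE 0.18, adjusted p = 0.0194). HBT (AT2G20000, CDC27b), a subunit of the anaphase-promoting complex, fell by 0.61 (SE 0.12, adjusted p = 0.0127), from 7.31, 6.80 and 7.29 to 6.62, 6.34 and 6.62. HTB11, another H2B gene, fell by 0.49 (adjusted p = 0.0481) with overlapping groups. None of the 10 passed without control replicate 1 and 6 without control replicate 2. Of 7 tubulin genes TUA6 (AT4G14960) alone passed, with 11.34, 10.95 and 11.14 against 10.61, 10.55 and 10.93, a fall of 0.45 (SE 0.13, adjusted p = 0.0448), and the median of the 7 was -0.37. None of the 7, a list added after values were seen, passed without control replicate 1.

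Some genes of autophagy and endosomal sorting were higher, where 4.14% of all probe sets were higher. ATG8 proteins are ubiquitin-like tags of the autophagosome membrane, and of 11 autophagy genes 2 were higher and 0 lower, with a median of 0.20. ATG8E (AT2G45170) had 6.91, 10.32 and 8.53 on the controls and 10.63, 10.63 and 10.98 at 500 Hz, and rose by 2.16 ± 0.52 (4.47-fold, adjusted p = 0.0231). ATG8H (AT3G06420) had 6.91, 7.44 and 7.16 against 7.54, 8.03 and 7.95 and rose by 0.67 ± 0.14 (adjusted p = 0.0146). The ATG8E controls lay much farther apart than those of ATG8H, and control replicate 2 was the highest control in both. None of the 11 passed without control replicate 1, 500 Hz replicate 2 or 500 Hz replicate 3, and without the first ATG8E had 1.32 (adjusted p = 0.072) and ATG8H 0.54 (adjusted p = 0.0709). The ESCRT complexes bend endosome membranes to sort ubiquitin-tagged proteins to the vacuole. Of 14 ESCRT and vacuolar sorting genes, a list added after values were seen, 3 were higher and 0 lower (median 0.14). They were VPS60.1 (AT3G10640) at 0.99 ± 0.23, VPS2.1 (AT2G06530) at 0.82 ± 0.22 and ELC (AT3G12400), the ubiquitin-binding subunit, at 0.72 ± 0.17. ELC had 8.35, 8.81 and 8.87 on the controls and 9.17, 9.27 and 9.74 at 500 Hz, with no overlap. None of the 14 passed without the same arrays, and without control replicate 1 ELC had 0.55 (adjusted p = 0.0972) and the median of the 14 was 0.05. Among 13 ubiquitin-conjugating enzymes 1 passed, with a list median of 0.05, which is near the share over all probe sets. It was UBC32 (AT3G17000), which sits at the endoplasmic reticulum and rose by 0.58 ± 0.13. UBP24 (AT4G30890), a protease that removes ubiquitin, fell by 0.60 (SE 0.11, adjusted p = 0.00989). Without control replicate 1 UBP24 still passed, with -0.53 (adjusted p = 0.0452), and UBC32 did not (0.53, adjusted p = 0.0756). The ubiquitin-conjugating list was added after values were seen.

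Transcription factors of the bZIP family were higher in 4 of 23 cases and lower in 0, with a median of 0.05. BZIP60 (AT1G42990), which is activated when unfolded proteins build up in the endoplasmic reticulum, had 9.01, 9.52 and 9.77 on the controls and 10.02, 10.96 and 10.26 at 500 Hz. It rose by 0.98 ± 0.23 (adjusted p = 0.0221). BZIP53 (AT3G62420), a factor linked to low-energy responses, had 9.51, 10.54 and 10.10 against 10.78, 11.16 and 11.04, and rose by 0.94 ± 0.18 (adjusted p = 0.0111). BZIP53 passed with each control left out (adjusted p at most 0.0413). BZIP24 had 4.63, 4.60 and 4.61 on the controls, which lay close together, and 4.99, 5.09 and 5.02 at 500 Hz, a rise of 0.42 ± 0.10 at low signals. Without control replicate 1 BZIP53 alone of the 23 passed, with BZIP60 at 0.77 (adjusted p = 0.108). In the list of the unfolded protein response 2 of 11 genes were higher and 1 lower, with a median of -0.14. Beside BZIP60, the J-domain cochaperone gene ATERDJ2B (AT4G21180) rose by 0.64 ± 0.12 (adjusted p = 0.00989), from 6.85, 6.58 and 6.72 to 7.23, 7.41 and 7.42, and passed with each control left out. PDIL5-1, of the protein disulfide isomerase family, fell by 0.55 (SE 0.12), and by 0.49 (adjusted p = 0.0678) without control replicate 1. Among 11 bHLH genes MYC4 (AT4G17880), a jasmonate factor, fell by 1.05 (SE 0.24, adjusted p = 0.0195), with its nearest arrays 0.01 apart, and it had -0.75 (adjusted p = 0.0893) without control replicate 1.

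UGT glycosyltransferases attach sugars to hormones and secondary metabolites. Of 51 measured genes 1 was higher and 4 lower, with a median of 0.02. UGT71B1 (AT3G21750) had 8.90, 7.26 and 8.25 on the controls and 6.97, 6.50 and 6.48 at 500 Hz, and fell by 1.49 (SE 0.30, adjusted p = 0.0137). UGT76E11 fell by 1.20 (SE 0.30) and UGT84A3 by 1.03 (SE 0.26), and UGT84A4, which lies next to UGT84A3, by 0.64. The higher gene, UGT72E3, rose by 0.37. None of the 51 passed without control replicate 1, where UGT71B1 had -1.11 (adjusted p = 0.0578), or without 500 Hz replicate 2, and 2 were higher and 9 lower without control replicate 2. Single passing genes of other lists were HEMA2 (AT1G09940), for an early enzyme of tetrapyrrole synthesis, at 1.07 ± 0.28, the ATP sulfurylase gene APS3 at 0.84 ± 0.23, the channel gene GLR3.5, which fell by 0.46, and the methionine sulfoxide reductase gene MSRA5, which fell by 0.49. The auxin-family gene IAA33 (0.27 ± 0.06) and the cytochrome P450 gene CYP71B27 (0.29 ± 0.06) also passed, but their signals stayed below a mean log2 of 5, the minimum of an alternative filter on dim probe sets. None of these 6 genes passed without control replicate 1, and the groups of HEMA2 and APS3 overlapped.

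None of the 69 plastid-encoded genes, the 15 mitochondrial respiratory genes, the 14 glutathione transferases, the 18 sugar and starvation genes, the 9 cold-regulated genes, the 5 heat shock genes and the 8 pollen markers passed in limma on 18 arrays. The plastid-encoded genes had changes of -0.36 to 0.56 with a median of -0.01 and 33 positive values, and 5 were higher without control replicate 2. The heat shock genes had -0.75 to 0.08. Of the 41 lists with at least 3 measured genes (503 genes in all), 26 had a passing gene. Since 8.91% of all probe sets passed, a share such as 1 of 11 bHLH genes or 5 of 51 UGT genes lies near the background. The same holds for 1 of 13 ubiquitin-conjugating enzymes, and for 2 higher and 2 lower of 33 pectin- and cellulose-related genes.

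**Figure D3:**
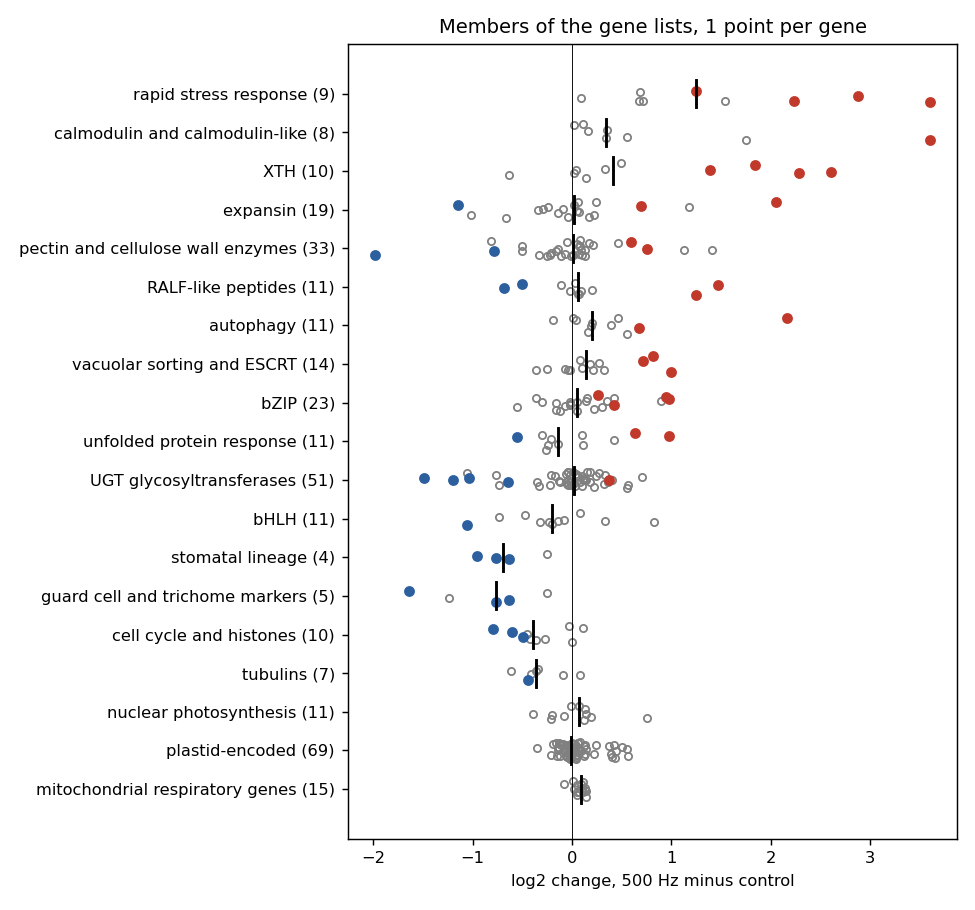
Log2 change of each member of 19 gene lists, 500 Hz minus control, with the number of measured genes after the list name and the median as a bar. Filled points passed (adjusted p under 0.05), red higher and blue lower. The passing genes of the rapid stress, XTH, autophagy and ESCRT lists are all higher. Those of the stomatal, cell cycle and guard cell and trichome lists are all lower. The RALF, ESCRT, stomatal and tubulin lists were added after values were seen. The stomatal and the guard cell and trichome lists share SPCH, MUTE and FMA.

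Many of the largest changes belonged to loci that the annotation tables name by their code only. AT2G20670 changed most, from 5.07, 8.89 and 5.87 on the controls to 9.86, 10.77 and 11.16 at 500 Hz. It rose by 3.99 ± 0.75 (15.9-fold, adjusted p = 0.0109), and by 3.22 without control replicate 1 (adjusted p = 0.0526). AT3G62950 had 4.14, 7.33 and 4.51 against 8.38, 8.63 and 8.80, a rise of 3.28 ± 0.57 and a gap of 1.05, and it passed with each control left out. The other rises by size were AT1G02660 (2.76), AT2G44500 (2.69), AT2G41640 (2.66), AT2G25200 (2.61), AT5G19120 (2.58), AT3G55840 (2.55), AT5G60680 (2.55) and AT5G39580 (2.49), with adjusted p of 0.011 to 0.0233. The largest falls at such loci were those of AT1G60590 (-1.93), AT1G52770 (-1.91), AT2G44940 (-1.84), AT1G48330 (-1.63), AT3G01660 (-1.58), AT1G17665 (-1.54), AT4G16447 (-1.52), AT1G17090 (-1.52) and AT4G19430 (-1.49). AT1G52770 had 7.31, 6.39 and 7.43 on the controls and 5.31, 5.17 and 4.92 at 500 Hz, the only fall with a gap over 1 (1.08).

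Some of the widest gaps belonged to genes on which the controls lay close together. AT5G38710 had 5.77, 5.68 and 5.69 on the controls and 6.68, 7.15 and 6.96 at 500 Hz, a gap of 0.91 with a rise of 1.22 ± 0.18 (adjusted p = 0.00962). Its change was 1.25, 1.20 and 1.21 without control replicates 1, 2 and 3, so no single control set its size. AT1G33760 had 4.69, 5.04 and 4.82 against 6.01, 6.86 and 6.22, a gap of 0.97. The other wide gaps above, beside AT2G20670 and AT3G62950, were those of AT5G52760 (0.91), AT3G07350 (0.83), AT4G05070 (0.77) and AT4G27350 (0.74). The wide gaps below, after AT1G52770, were AT1G17665 (0.83), AT3G61950 (0.75), AT1G17090 (0.74), AT1G48330 (0.70), AT2G18940 (0.67), AT5G02890 (0.67) and AT1G60590 (0.67).

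Further genes with a symbol and a change of at least 0.9 on the log2 scale, picked after their values were seen, spread over membranes, transport and growth. Those that rose were the tetraspanin gene TET8 (1.63), ZCF37 (1.45), PRA1.G2 (1.30), ACA.l (1.12), the C2-domain gene SRC2 (1.1), the oil-body lipase gene SDP1 (1.1), the trihelix factor gene GT2 (1.07), the kinase gene PTI1-4 (0.96), the factor gene BPC1 (0.96), the peptide receptor gene PSY1R (0.94) and TRM26 (0.92). Those that fell were the iron transporter gene Mfl1 of the chloroplast (-1.19), the organic cation and carnitine transporter gene OCT5 (-1.30), P1R1 (-1.12), the vascular bHLH gene LHW (-1.05) and TRM24 (-1.05). TRM24 had 5.76, 4.04 and 5.50 on the controls and low signals of 4.02, 4.07 and 4.07 at 500 Hz. Control replicate 2 thus lay within the sound arrays, and without control replicate 1 the adjusted p of TRM24 was 0.154. Mfl1 (AT5G42130) had 9.14, 8.34 and 8.96 on the controls and 7.90, 7.40 and 7.56 at 500 Hz and passed with each control left out (adjusted p at most 0.0413).

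Of the genes singled out by rank, gap, list or symbol, 104 passed against control, 60 higher and 44 lower, not counting UGT72E3, UGT84A4 and RALFL31. Control replicate 2 was the control nearest to the 500 Hz arrays in 87 of the 104, and the SD of the controls was above that of the 500 Hz arrays in 86. With control replicates 1, 2 and 3 left out 20, 102 and 70 of them passed, with 500 Hz replicates 1, 2 and 3 left out 92, 0 and 51, and no change turned its sign in these fits. On the 6 arrays alone all 104 had an unadjusted p under 0.05 in limma and none passed after adjustment. These genes were chosen for passing on the same arrays, so kept signs and low unadjusted p values add little.

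To ask what set 500 Hz apart from other sound, it was compared with the average of the 250, 1000, 2000 and 3000 Hz groups, without the controls in the contrast. It shares the 500 Hz arrays with the comparison above. The 6 arrays at 2000 and 3000 Hz had a mean signal of the added spike controls of 5.73 to 6.19. It was 5.18 to 5.39 on the other 12 arrays. The silent controls still entered the variance shared in this fit and in the fit on 12 arrays below. Their mean variance was 0.103, against 0.0275 to 0.0461 in the other groups. Without them, on the 15 sound arrays, 2489 probe sets passed, against 645 here. The test called 263 probe sets higher and 382 lower at 500 Hz, 2.84% of those tested (1.16% higher, 1.68% lower), and 348 and 285 after centring, which moved the higher share from 40.8% to 55.0%. Fitted on the 12 arrays of control, 250, 500 and 1000 Hz, where the spike signals were alike and 500 Hz is set against 250 and 1000 Hz only, 191 passed, 106 of them among the 645. Of 51 named genes that passed against the 4 frequencies, 11 passed and 40 did not on the 12 arrays, and all 51 kept their sign. These genes were chosen for passing with the same 250, 500 and 1000 Hz arrays, so kept signs add little. Without 500 Hz replicates 1, 2 and 3 the count was 534, 3 and 79. All 3 arrays at 500 Hz lay beyond all 12 others at 617 probe sets (2.71%), 265 of which passed (89 higher, 176 lower).

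Genes lower at 500 Hz than at other frequencies included growth and division genes. RR16 differed by -0.87 ± 0.20 (adjusted p = 0.0407), with group means of 8.08 at 250, 8.22 at 1000, 8.72 at 2000 and 7.99 at 3000 Hz against 7.39 at 500 Hz. Its highest 500 Hz array, 7.95, lay within the other arrays, which ran from 7.80 to 9.20. TSO1 (AT3G22780), a regulator of cell division in meristems, had 7.08, 6.98 and 7.10 at 500 Hz, below the controls (7.46 to 7.68) and the other frequencies (7.25 to 7.63), a difference of -0.45 ± 0.08 (adjusted p = 0.0176). HBT lay below all 12 other arrays (6.87 to 7.02) by -0.42 ± 0.10 (adjusted p = 0.0361). In the cell cycle and histone list 4 of 10 genes were lower and 0 higher, with HTB1 at -0.63, HTB2 at -0.63 and PRL, the MCM7 subunit of the replication helicase, at -0.57. TUA6 and TUB6 differed by -0.47 and -0.37 (2 of 7 tubulins), the actin-binding LIM protein gene WLIM1 by -0.55, the growth regulator gene TCP15 by -0.68 and RALFL34 by -0.49. On the 12 arrays TSO1, HTB2, TUA6, TUB6 and WLIM1 passed (adjusted p of 0.0169 to 0.0498), and RR16 (adjusted p = 0.142), HBT, HTB1, PRL, TCP15 and RALFL34 did not.

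Genes higher at 500 Hz than at other frequencies included sorting and autophagy genes. In the ESCRT list 3 of 14 were higher and 0 lower, with VPS60.1 at 0.73, ELC at 0.56 and SNF7.1 at 0.33. That list was added after values were seen. In the autophagy list 2 of 11 were higher, ATG8H at 0.68 ± 0.11 (adjusted p = 0.0157) and AT5G66930 (ATG101) at 0.48. The ATG8H means were 7.55 at 250, 7.84 at 500, 7.48 at 1000, 7.13 at 2000 and 6.48 at 3000 Hz, so the 2 neighbouring frequencies were closest to it. Among the ubiquitin-conjugating enzymes UBC16 differed by 0.77 and UBC32 by 0.47, and the receptor kinase gene FER (FERONIA) differed by 0.45. LUP5 (AT1G66960), of the triterpene synthases, had 4.96, 4.98 and 4.77 at 500 Hz and 4.18 to 4.51 at other frequencies, a difference of 0.52 ± 0.10, but its controls of 4.36, 4.33 and 4.96 overlapped the 500 Hz arrays. None of the genes named here passed on the 12 arrays, where ATG8H had 0.32 (adjusted p = 0.271) and ELC 0.40 (adjusted p = 0.263).

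CML38, EXO, XTH18 and XTH33, touch and wall genes that rose against silence, did not pass here. Nor did ATG8E, which also rose against silence, or ARR15 and SPCH, which fell. CML38 differed from the other frequencies by 0.83 ± 0.48 (adjusted p = 0.32), and the 12 other arrays ran from 8.04 to 9.34. EXO had 0.31 ± 0.53 (adjusted p = 0.764), XTH18 had 1.61 ± 0.51 (adjusted p = 0.0895) and XTH33 had 0.65 ± 0.37 (adjusted p = 0.302). ATG8E had 0.76 ± 0.41 (adjusted p = 0.287), ARR15 had 0.01 ± 0.19 (adjusted p = 0.988) and SPCH had -0.25 ± 0.12 (adjusted p = 0.214). A p that misses the threshold does not show that the frequencies were alike for these genes. The wide spread of the controls also entered these errors.

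**Figure D4:**
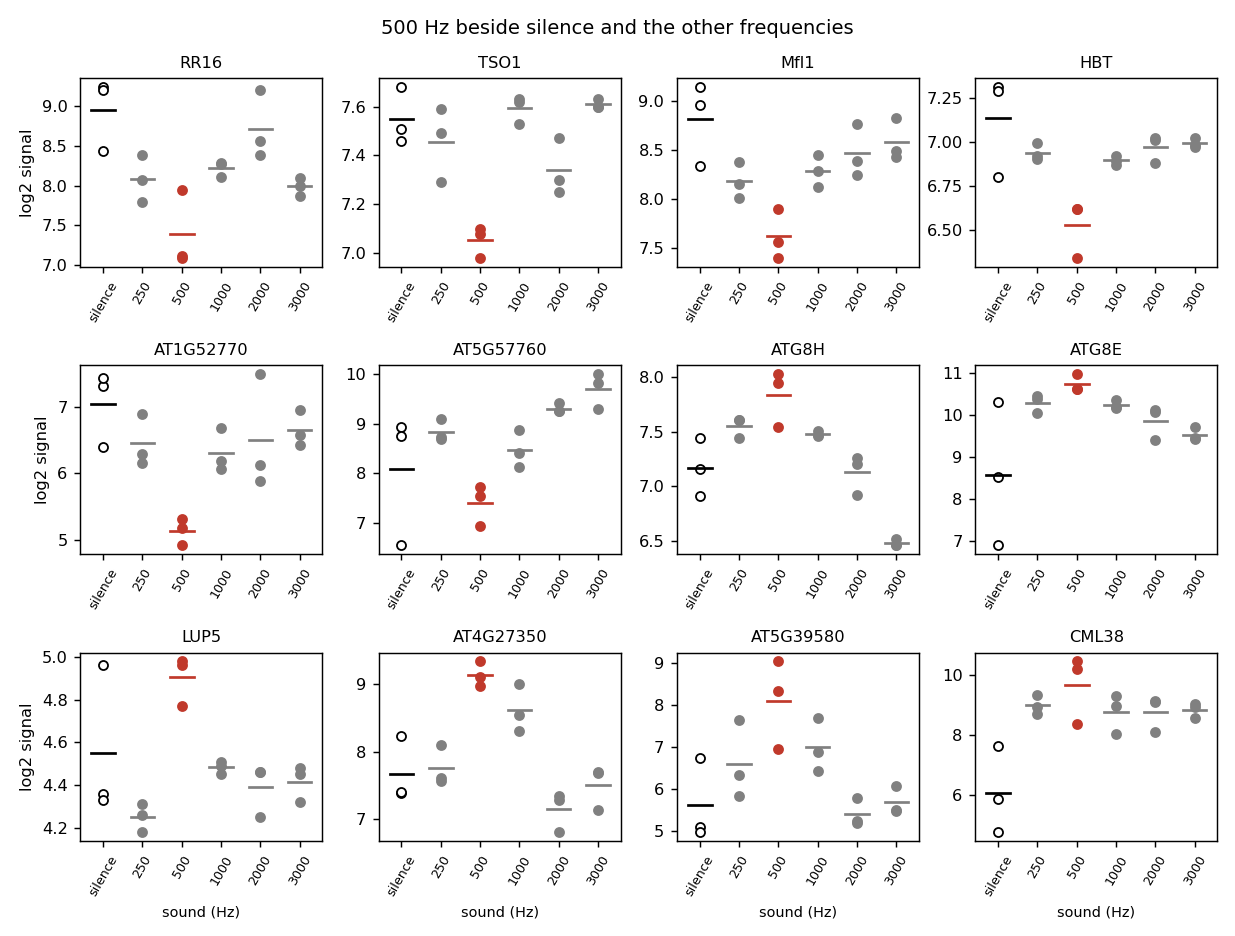
Log2 signal of 12 genes on all 18 arrays, silence as open points, 500 Hz in red and the other frequencies in grey, with the group mean as a bar and an axis of its own for each gene. RR16, TSO1, Mfl1, HBT, AT1G52770 and AT5G57760 have their lowest mean at 500 Hz, and the other 6 genes their highest.

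Among loci named by code, AT5G39580 differed most upward, by 1.93 ± 0.44 (adjusted p = 0.0366), with means of 8.10 at 500 Hz, 7.003 at 1000 Hz and 5.41 at 2000 Hz. AT5G57760 differed most downward, by -1.68 ± 0.35 (adjusted p = 0.0283). It had 7.72, 7.53 and 6.93 at 500 Hz and 8.12 to 10.00 at the other frequencies, yet its controls spread from 6.55 to 8.94 around the 500 Hz values. AT1G52770 was below both the controls and the other frequencies (5.88 to 7.49), with a difference of -1.34 ± 0.28 (adjusted p = 0.0286). AT3G61820 and AT5G07900 were likewise below all arrays of the other groups, at 7.40 to 7.46 and 6.30 to 6.59, with differences of -0.84 and -0.99. Of these 5 loci AT1G52770 alone passed on the 12 arrays (adjusted p = 0.0404).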

How the data were processed

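The authors deposited 1 column of log2 signals per array for 22810 probe sets. Affymetrix Expression Console 1.1, RMA and MAS5 are named per the submitters' processing notes, and which of them made the column is not given in the sources used here. After 64 control probe sets were set aside, 22746 were tested. Probe sets were named through the platform table and RefSeq (TAIR10.1): 13513 had 1 gene, 503 several and 8730 none that could be named. The measured genes of a list are its members among the probe sets with 1 gene. All 18 arrays were fitted with limma 3.58.1 in R 4.3.3 (lmFit, eBayes with an intensity trend) without a block, two-sided. Errors are SE of the fit with 3 arrays per group, and the number of arrays limits precision. On simulated data with 22746 probe sets, the test against control recovered 64% of changes of 0.5, 76% of 1, 98% of 1.5 and 96% of 2. It called 9 unchanged ones. The simulation gave each probe set the same spread in all groups. In the data the mean variance was 0.103 in the controls and 0.0275 to 0.0461 in the other groups. These rates therefore do not describe the test against these controls.

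Genes named are the 12 largest rises and falls and the 8 widest gaps each way among single-gene probe sets that passed and whose groups did not overlap, then CML38, XTH18, RR16, up to 3 passing members of each list with at least 3 genes, and the 8 highest and lowest against the other frequencies. A gene with several probe sets is represented by its brightest. Members and lists were chosen with earlier results of these data known. The RALF, stomatal, tubulin, ESCRT and ubiquitin-conjugating lists, genes with symbols changed by at least 0.9, genes that pass with each control left out and other list members were added after values were seen. Replicate numbers did not pair control and 500 Hz arrays: deviations of same-numbered arrays from their group means correlated by 0.159, 0.012 and -0.187. Alternatives covered scaling, filtering, array weights, fewer arrays and each array left out.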

Additional observations from a re-analysis of the deposited data

Results flagged for a closer look

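The difference of 500 Hz from the other 4 frequencies was tested itself, and 645 probe sets passed in limma on 18 arrays. The named genes among them are given as log2 differences. Higher at 500 Hz were AT5G39580 (1.93), AT4G27350 (1.38), AT3G06780 (0.92), AT5G63905 (0.91), AT1G04200 (0.82), AT4G29950 (0.77), AT3G02070 (0.77), UBC16 (0.77), VPS60.1 (0.73), AT1G14200 (0.72), AT1G80960 (0.70), AT4G28400 (0.69) and ATG8H (0.68). Smaller positive differences were those of CSLC12 (0.57), ELC (0.56), LUP5 (0.52), AT5G66930 (0.48), UBC32 (0.47), FER (0.45), INH3 (0.41), GLX2-5 (0.40), SEC22 (0.34), SNF7.1 (0.33), I-2 (0.32), IAA33 (0.24) and CYP71B27 (0.23). INH3 and I-2 encode inhibitors of protein phosphatase 1, SEC22 a vesicle SNARE and GLX2-5 a glyoxalase.

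Lower at 500 Hz were AT5G57760 (-1.68), AT4G30650 (-1.36), AT1G52770 (-1.34), AT2G43535 (-1.04), AT5G07900 (-0.99), AT5G02890 (-0.96), AT2G18940 (-0.88), RR16 (-0.87), AT1G78995 (-0.85), AT3G61820 (-0.84), COR15A (-0.83) and Mfl1 (-0.76). Smaller negative differences were those of TCP15 (-0.68), HTB1 (-0.63), HTB2 (-0.63), PRL (-0.57), WLIM1 (-0.55), RALFL34 (-0.49), CPI1 (-0.48), TUA6 (-0.47), TSO1 (-0.45), HBT (-0.42), FZL (-0.41), TUB6 (-0.37) and IQD31 (-0.33). COR15A is a cold-regulated chloroplast protein gene, CPI1 encodes a sterol isomerase and FZL a thylakoid-shaping GTPase. None of the named genes passed this test without 500 Hz replicate 2. On the 12 arrays of control, 250, 500 and 1000 Hz, where 500 Hz is set against 250 and 1000 Hz only, 11 of the 51 passed. They were IAA33, COR15A, CPI1, TUB6, TUA6, HTB2, TSO1, WLIM1, AT2G43535, AT4G30650 and AT1G52770. IAA33 and CYP71B27 had signals below a mean log2 of 5.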

How the results depend on the processing

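The 2026 probe sets that passed against control became 1277 with array weights, 709 on the 12 arrays of control, 250, 500 and 1000 Hz, and 0 on the 6 arrays alone (3698 at an unadjusted p under 0.05). Leaving out single arrays gave 2 to 4075, with 182 without control replicate 1. Median centring, quantile normalization, the filter on a mean log2 signal below 5 and the fit without a trend gave 1916 to 2323. The replicate block gave 1816, although the numbers do not pair these arrays. Against the other frequencies 645 became 191 on 12 arrays, 959 with low probe sets left out, 2458 with array weights, 2489 on the 15 sound arrays and 538 with the replicate block, and 3 to 945 with single arrays left out. The 5014 probe sets beyond all controls became 9 at a gap of at least 1, 10917 without the replicates numbered 2 of both groups (chosen after seeing the data) and 6207 to 9448 with single arrays left out. No named change turned its direction where it had passed, which the choice of passing genes largely fixed. The causes were not tested. In simulated data with 3 arrays and equal spread per group, log2 changes near 0.5 were recovered less often than those above 1. The controls here spread more than the other groups, and 8730 probe sets could not be named.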
